A study of Mus musculus with 11 samples.

Results

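The nuclear genes that encode the subunits of oxidative phosphorylation were followed in the hippocampus of mice that lack the 1b regulatory region of Scn1a on 1 or both chromosomes. They were selected by symbol, as all genes whose name begins with Nduf followed by a letter and number, Sdha to Sdhd, or begins with Uqcr, Cox4 to Cox8 or Atp5. The selection found 84 symbols among 24391 genes counted in one round of sequencing and 24015 in the other. Of these, 80 reached 1 CPM in some library of the heterozygous round and 81 did so in the homozygous round, where CPM is a count corrected for the size of its library. By symbol, 37 belong to complex I, 4 to complex II, 8 to complex III, 17 to complex IV and 15 to complex V. The remaining 3, Cox7a2l, Atp5s and Atp5sl, match the names but are not structural subunits. They are placed in no complex, but are included below wherever the 80 or 81 genes are called subunit genes.

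Oxidative phosphorylation takes place in the inner mitochondrial membrane. Complexes I and II pass electrons from NADH and succinate to ubiquinone, complex III passes them on to cytochrome c, and complex IV passes them to oxygen. Complexes I, III and IV pump protons as they do so, and complex V, the ATP synthase, uses the returning protons to make ATP. Neurons that fire often draw most of their ATP from this pathway. The subunits encoded by mitochondrial DNA were not analysed here.

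RNA-seq of hippocampus from 11 mice was used, all of 1 Cas9-made deletion line on the C57BL/6N background. The age is postnatal day 32 by the study's methods, and adult by the labels. The heterozygous round held 3 male WT mice and 4 1b+/- mice (3 males, 1 female, which is replicate 4), read as pairs of 150 bases. The homozygous round held 2 female WT mice and 2 1b-/- mice (replicate 1 male, replicate 2 female), read as single ends of 50 bases. Mutants were set against the WT libraries sequenced with them, to ask whether loss of 1 or both copies of the 1b region goes with a change in these transcripts.

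Total counts ran from 20667122 to 36145161 per library, and the 84 genes together took between 0.777% and 1.11% of them. Both 1b-/- libraries were deeper than both WT libraries of their round. Scn1a, which encodes the sodium channel targeted by the deletion, was at 113 to 171 CPM in WT and 83.4 to 119 CPM in 1b+/- mice (log2 fold change -0.47 ± 0.15 SE, adjusted p = 0.303). In the homozygous round Scn1a was at 134 to 173 CPM in WT and 16.7 to 26.3 CPM in 1b-/- mice (-2.83 ± 0.27, adjusted p = 0.0211). Here and below, adjusted p-values are those of edgeR's quasi-likelihood F test, adjusted by Benjamini-Hochberg across every gene tested in the round. Markers of other tissue moved with genotype in the homozygous round. The summed level of 16 striatal genes was 4728 to 11125 CPM in WT and 674 to 725 CPM in 1b-/- libraries. All 16 were lower, 13 of them at an adjusted p under 0.05, beside 3.58% of all genes called. None of the striatal genes was at 0 in all libraries. At an adjusted p under 0.05, 3 of 10 dentate granule cell genes and 3 of 9 pyramidal cell genes rose, beside 3.58% of all genes called. At an unadjusted p under 0.05, 6 of the 10 dentate genes were higher and 3 lower. C1ql2, a dentate gene, had a mean of 1.82 CPM in WT and 75.4 CPM in 1b-/- libraries. Fibcd1, a pyramidal cell gene, had means of 14.4 and 158 CPM. The 8 oligodendrocyte genes summed to 16533 to 22809 CPM in WT and 11666 to 13660 CPM in 1b-/- libraries. All 8 were lower, 1 of them at an adjusted p under 0.05. Choroid plexus genes ranged from 56.9 to 3482 CPM in WT and from 66.05 to 13827 CPM in 1b-/- libraries. In the heterozygous round, where no marker was called, the striatal sum was 655 to 927 CPM in WT and 611 to 657 CPM in 1b+/- libraries. At an unadjusted p under 0.05, 8 of 15 striatal genes were lower, beside 5.95% of all genes, and 1 was higher. The 8 oligodendrocyte genes summed to 6030 to 9970 CPM in WT and 8642 to 10177 CPM in 1b+/- libraries, with 4 higher at an unadjusted p under 0.05. So were 4 of 10 dentate granule cell genes and 3 of 9 pyramidal cell genes, beside 5.32% of all genes higher. Of the dentate genes, 1 was lower at this level, Calb1 (log2 fold change -0.38 ± 0.08, adjusted p = 0.157 by edgeR), and it had the smallest p of that list. Choroid plexus genes ranged from 781 to 1139 CPM in WT and from 64.7 to 2722 CPM in 1b+/- libraries. The part of these differences in tissue makeup in the values of the subunit genes was not tested. In bulk tissue, a different share of other tissue in the sample, fewer cells of a type and less RNA per cell cannot be told apart. None of these was tested.

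In WT hippocampus of the heterozygous round, the levels of the subunit genes were compared per length, as CPM divided by exon length in kilobases (RPKM, exon lengths from the mm9 annotation). The highest was Cox4i1, the ubiquitous form of subunit 4 of cytochrome c oxidase, at 444 ± 8.74 RPKM (SD, n = 3). It was followed by Cox8a at 372 ± 7.58 RPKM and Cox6b1 at 259 ± 10.8 RPKM. Ndufa4, named for complex I but now known as a subunit of complex IV, stood at 251 ± 8.59 RPKM, within 1 SD of Cox6b1. With the genes grouped by symbol, so that Ndufa4 counts under complex I, the median was 102 RPKM for complex IV, 73.8 for complex III, 65.2 for complex V, 46.2 for complex I and 44.1 for complex II.

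Where complex IV has tissue forms, 1 form made up nearly all of the signal in these hippocampi. Cox4i2, a form best known from lung, was at 0.958 RPKM beside Cox4i1. Cox6a1 was at 221 RPKM and its heart and muscle form Cox6a2 at 4.08 RPKM. Cox7a2 was at 117 RPKM and its heart and muscle form Cox7a1 at 1.83 RPKM. Cox6b1 was at 259 RPKM and the testis form Cox6b2 at 2.53 RPKM. Beside Cox8a, the muscle form Cox8b had 6 to 17 counts per library and did not pass the filter, and Cox8c was listed at 0 in all 11 libraries. Cox7b was at 74.3 RPKM, and the testis form Cox7b2 had 1 to 9 counts per library in this round and 7 to 15 in the other. The 3 genes of the c-ring of ATP synthase, whose mature proteins are identical, differed in level. Atp5g3 was at 73.4 RPKM, Atp5g2 at 60.4 RPKM and Atp5g1 at 16.9 RPKM. Among the catalytic F1 genes, Atp5a1 (alpha) was at 228 RPKM and Atp5b (beta) at 216 RPKM, above Atp5c1 (gamma) at 88.7, Atp5d (delta) at 65.2 and Atp5e (epsilon) at 25.5 RPKM. Among the core subunits of complex I, which carry its flavin and iron-sulfur clusters, Ndufv1 was at 49.1 RPKM, Ndufs8 at 48.9 RPKM and Ndufs7 at 23.1 RPKM. All annotated exons of a gene count toward its length, so genes with long annotated exons, such as Atp5g1 with 4908 bases, may stand too low.

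Some levels depended on the round. Atp5l, which encodes the g subunit of ATP synthase, was at 79.7 CPM in WT of the heterozygous round and at 1.77 CPM in WT of the homozygous round, a ratio of 0.0222. Ndufb4, an accessory subunit of complex I, was at 24.96 and 5.58 CPM. Cox7c, a small subunit of complex IV, was at 101 and 42.6 CPM. These 3 were the genes below 0.5 times their heterozygous-round level, 3.75% of 80, beside 6.68% of all 14173 genes in both fits. Another 8 stood above 2 times that level, among them Cox8a (203 and 471 CPM) and Ndufs6 (29.8 and 73.0 CPM). The median ratio was 1.27 for the subunit genes and 1.05 for all genes. The tables were normalised separately, and the rounds differ in read length, pairing, sex and tissue makeup, so these levels were not tested against each other. Ndufs5, a further accessory subunit of complex I, was listed at 0 in all 11 libraries.

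**Figure D1:**
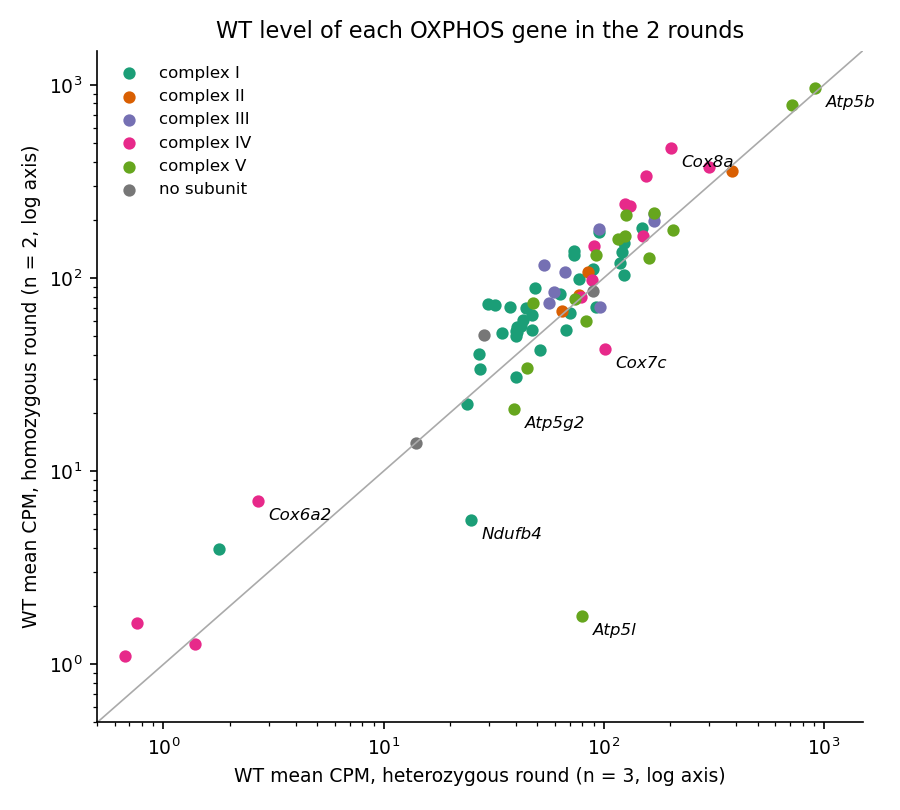
Mean CPM of each subunit gene in WT mice of the heterozygous round (x, n = 3) and of the homozygous round (y, n = 2), both on log axes, with colours for the complexes and a line of equal level. Most genes lie near or above the line, and Atp5l, at 79.7 against 1.77 CPM, lies farthest below it.

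The promoters of these genes were searched for letters bound by known regulators of respiratory genes, in RefSeq windows from 250 bases before to 50 bases after each annotated start (GRCm38.p6), on both strands. Of the 84 symbols, 66 had a window, and a gene with several starts counted once. The letters GCGCNTGCG, the core of the site of nuclear respiratory factor 1 (NRF1), stood in 23 of 66 promoters (34.8%), beside 13.8% of 11404 promoters of tested genes and 7.12% of all 27025 genes with a window. AAGATGGC (YY1) stood in 13.6% of the 66, beside 4.71% of tested genes. CCGGAAGT (ETS factors, which include GABP) stood in 7.58% beside 7.87%, TCAAGGTCA (estrogen-related receptors) in 3.03% beside 0.342%, and TATAAA, the TATA-binding protein's box, in 10.6% beside 8.94%. None of the 5 strings contains another. Of 19 genes with an unadjusted p under 0.05 in either comparison below, 15 had a window and 7 of these held the NRF1 letters. These 7 are shown because they are the leading genes of the comparisons that carry the commonest motif. Each is printed 5′ to 3′ on the strand of its gene, with 10 bases on either side of the motif, which is in capitals.
Atp5d, chr10:80142322-80142350, plus strand: agaatcctgtGCGCGTGCGttcttgtggg
Atp5g2, chr15:102671071-102671099, minus strand: ggctccggccGCGCATGCGcagagccttc
Atp5g3, chr2:73911296-73911324, minus strand: gagccgcaccGCGCTTGCGcgcccagccc
Atp5o, chr16:91931603-91931631, minus strand: gctggcgcgcGCGCGTGCGctctggcgcc
Ndufa11, chr17:56717692-56717720, plus strand: cctgcactgcGCGCATGCGcgcacgcctt
Ndufa8, chr2:36049350-36049378, minus strand: ctagagcagtGCGCTTGCGcgtcgctgga
Uqcrc1, chr9:108936643-108936671, plus strand: cttccttacaGCGCTTGCGcctcagactc
The motif begins upstream of the annotated start in Atp5g2, Ndufa11 and Ndufa8 and downstream of it in the other 4. A match in letters is a description of the sequence, not a measurement of binding.

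In 1b+/- mice, none of the 80 subunit genes passed an adjusted p of 0.05, nor did any of all 14630 genes (0%), Scn1a included, so the lack of calls does not show that the genes were unchanged. DESeq2 also called 0 of the 80, beside 1.67% of all genes, and edgeR's likelihood ratio test 0 of 80, beside 1.31% of all genes. The differences were small: 74 of 80 genes differed by less than 0.1 on the log2 scale, with a median standard error of 0.05. At an unadjusted p under 0.05, 3 of 80 were lower, beside 5.95% of all genes lower, and 0 of 80 were higher, beside 5.32% of all genes higher. The 3 were Ndufa2, Atp5g2 and Atp5o.

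Ndufa2, an accessory subunit of complex I, was at 27.9, 27.6 and 26.9 CPM in WT and at 23.5, 24.1, 26.5 and 23.4 CPM in 1b+/- mice. All 4 mutant values lay below all WT values (log2 fold change -0.17 ± 0.06 SE, adjusted p = 0.320 by edgeR). Atp5o, the subunit that ties the F1 head of ATP synthase to its stator stalk, was at 117, 111 and 121 CPM in WT and at 105, 105, 111 and 111 CPM in 1b+/- mice. The groups did not overlap for Atp5o either (-0.11 ± 0.04, adjusted p = 0.404 by edgeR), and these were the 2 of 80 genes without overlap, beside 10.9% of all genes. Atp5g2, a c-ring gene, was at 39.4, 36.3 and 41.6 CPM in WT and at 36.3, 34.8, 35.1 and 36.4 CPM in 1b+/- mice (-0.13 ± 0.05, adjusted p = 0.394 by edgeR). Its highest mutant value lay just above the lowest WT value.

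Small negative differences were more frequent than over all genes tested. Of the 80 genes, 68 were lower in 1b+/- mice by any amount, beside 49.7% of all genes, with a median log2 fold change of -0.03 (all genes 0.00073). In complex I, 32 of 36 were lower (median -0.04), and beside Ndufa2 the next smallest p belonged to Ndufb11, an accessory subunit (-0.08 ± 0.04, adjusted p = 0.539 by edgeR). In complex II, which is also an enzyme of the tricarboxylic acid (TCA) cycle, 3 of 4 were lower. Sdha, its flavoprotein, was at 384, 375 and 382 CPM in WT and at 384, 378, 388 and 383 CPM in 1b+/- mice. Sdhb, its iron-sulfur protein, was at 84.6, 84.1 and 85.6 CPM in WT and at 81.9, 79.2, 82.6 and 86.5 CPM in 1b+/- mice. Neither gene separated the groups. In complex III 8 of 8 were lower, with log2 fold changes of -0.07 to -0.0065, in complex IV 10 of 14, and in complex V 14 of 15. The largest positive value was that of Cox7a1, at 0.538 to 0.750 CPM in WT and 0.661 to 1.29 CPM in 1b+/- mice (0.45 ± 0.31, adjusted p = 0.624 by edgeR).

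The medians of single libraries show what this shift amounts to. Relative to the WT mean, the median subunit gene stood at -0.0045, -0.04 and 0.05 in the 3 WT libraries and at -0.05, -0.07, -0.0050 and -0.0062 in the 4 1b+/- libraries, on the log2 scale. The mutant values lay within or just below the WT range, and the shift was smaller than the SD of the WT medians (0.05). WT replicate 3 was the highest library, so leaving it out makes the shift smaller by construction. Without it, 44 of 80 genes were lower and the median was -0.0046. Without WT replicate 2, the lowest WT library, 72 of 80 were lower and the median was -0.048. The cytosolic ribosomal protein genes, fixed as a list of other short and abundant transcripts, were lower in 77 of 78 cases (median -0.06, 20 with an unadjusted p under 0.05, 0 called), and mitochondrial ribosomal protein genes in 67 of 77 (median -0.06, 8 with an unadjusted p under 0.05, 0 called).

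**Figure D2:**
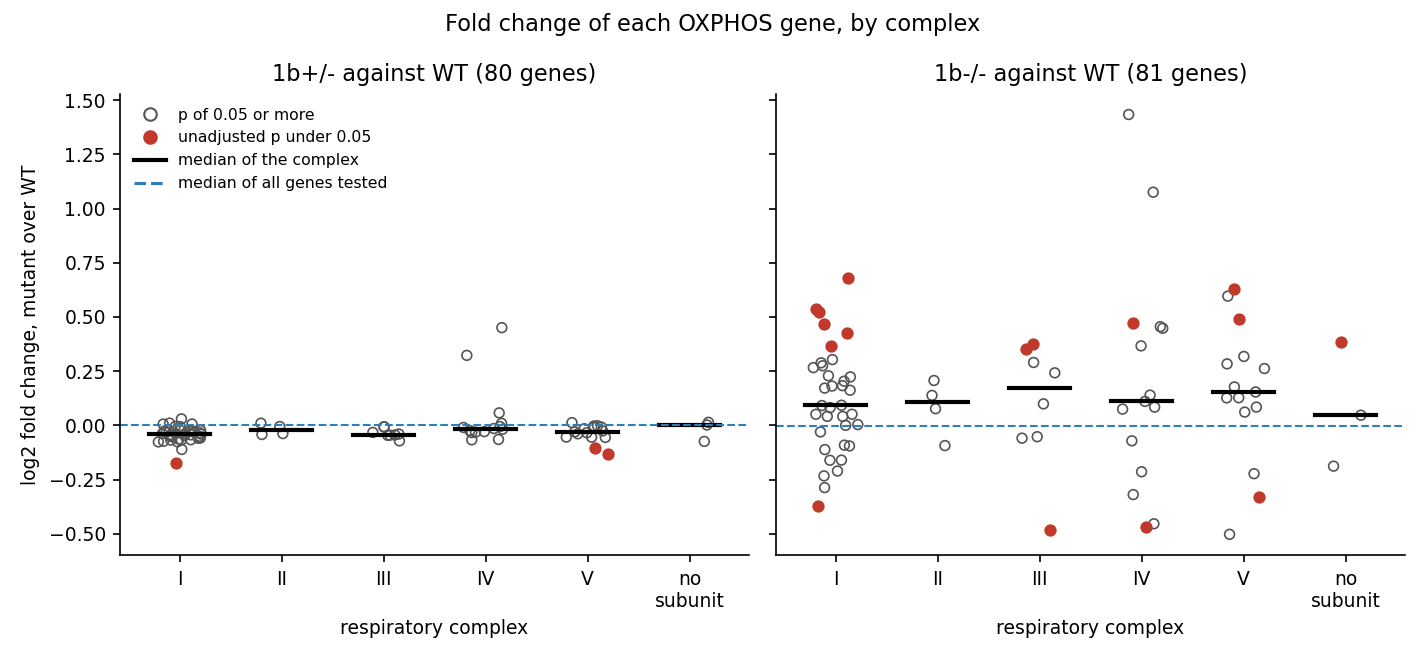
Log2 fold change of each subunit gene, mutant over WT, in 1b+/- mice (left, 80 genes) and 1b-/- mice (right, 81 genes), by complex, with filled red points for an unadjusted p under 0.05, black bars for the median of a complex and a dashed line for the median of all genes tested. In 1b+/- mice 74 of 80 genes lie within 0.1 of zero, and in 1b-/- mice 23 of 81 do.

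In 1b-/- mice the differences were larger, in both directions, and 0 of 81 genes passed an adjusted p of 0.05, beside 3.58% of 14838 genes. The smallest adjusted p was 0.0845, that of Ndufa10 by edgeR. DESeq2 called 4 of 81 (Ndufa10, Ndufa11, Atp5d and Cox6c), beside 14.4% of all genes, and the likelihood ratio test 1 (Ndufa11), beside 12.3% of all genes. At an unadjusted p under 0.05, 12 of 81 genes were higher, beside 13.6% of all genes, and 4 were lower, beside 12.8% of all genes. Of the 81, 23 were lower by any amount, beside 50.1% of all genes, and the median log2 fold change was 0.13 (all genes -0.0013). The median standard error was 0.14, and 54 of the 81 genes differed by less than 0.3. In 45 of 81 genes the groups did not overlap, beside 59.7% of all genes.

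In complex I, 26 of 36 genes were higher and 10 lower (median 0.09), with 6 and 1 at an unadjusted p under 0.05. Ndufa10, an accessory subunit (chr1:94335587-94370437 of mm9, minus strand), was at 122 and 117 CPM in WT and at 161 and 168 CPM in 1b-/- mice. Both mutant libraries stood above both WT libraries (log2 fold change 0.47 ± 0.11 SE, 1.38-fold, adjusted p = 0.0845 by edgeR). Ndufa11, a membrane accessory subunit (chr17:56857185-56863671 of mm9, plus strand), was at 60.6 and 43.8 CPM in WT and at 82.9 and 84.6 CPM in 1b-/- mice. It had the largest difference among genes with an unadjusted p under 0.05 (0.68 ± 0.18, 1.60-fold, adjusted p = 0.102 by edgeR), and the WT libraries differed from each other by more than the mutant libraries did.

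Among the core subunits, Ndufs7, which carries the last iron-sulfur cluster before ubiquinone, was at 59.5 and 46.4 CPM in WT and at 79.8 and 74.0 CPM in 1b-/- mice (0.54 ± 0.16, adjusted p = 0.121 by edgeR). Ndufv1, which binds NADH and the flavin, was at 111 and 96.5 CPM in WT and at 144 and 135 CPM in 1b-/- mice (0.42 ± 0.13, adjusted p = 0.121 by edgeR). Ndufs1, the largest core subunit, did not have an unadjusted p under 0.05, and was at 124 and 149.6 CPM in WT and at 115 and 121 CPM in 1b-/- mice. Its 1b-/- values lay below both WT values, whereas those of Ndufv1 and Ndufs7 lay above them. Ndufv3, an accessory subunit of that module, was at 61.2 and 50.6 CPM in WT and at 69.6 and 90.8 CPM in 1b-/- mice (0.52 ± 0.18, adjusted p = 0.159 by edgeR). Ndufa8 had a log2 fold change of 0.36 ± 0.13. Ndufb2, an accessory subunit of the membrane arm, was the one complex I gene lower at this level, at 41.1 and 40.1 CPM in WT and at 31.0 and 31.6 CPM in 1b-/- mice (-0.37 ± 0.12, adjusted p = 0.129 by edgeR).

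In complex II, 3 of 4 genes were higher and none had an unadjusted p under 0.05. Sdha was at 359.9 and 357 CPM in WT and at 404 and 385 CPM in 1b-/- mice, and Sdhb at 111 and 105 CPM in WT and at 125 and 124 CPM in 1b-/- mice. The groups did not overlap for either. Sdhc and Sdhd, the membrane anchors, did overlap.

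In complex III, 5 of 8 genes were higher (median 0.17). Uqcrc1, a core protein of the matrix side, was at 211 and 185 CPM in WT and at 267 and 248 CPM in 1b-/- mice (0.38 ± 0.13, adjusted p = 0.157 by edgeR). Uqcrq, a small membrane subunit, was at 92.0 and 76.8 CPM in WT and at 109 and 106 CPM in 1b-/- mice (0.35 ± 0.13, adjusted p = 0.182 by edgeR). Uqcrb, a ubiquinone-binding subunit, was at 96.1 and 136 CPM in WT and at 81.8 and 84.7 CPM in 1b-/- mice (-0.48 ± 0.19, adjusted p = 0.189 by edgeR). The WT pair spread more widely than the distance from the lower WT library to the mutant ones. Uqcrfs1, the Rieske iron-sulfur protein, was at 75.5 and 65.8 CPM in WT and at 81.7 and 91.1 CPM in 1b-/- mice, with no overlap between groups.

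In complex IV, 10 of 15 genes were higher (median 0.11). Cox6c, a small subunit (chr15:35855641-35868001 of mm9, minus strand), was at 168 and 163 CPM in WT and at 124 and 115 CPM in 1b-/- mice. Both mutant libraries lay below both WT libraries by more than either pair spread (-0.47 ± 0.11, 0.723-fold, adjusted p = 0.0868 by edgeR). Cox5a, which faces the matrix, was at 90.8 and 68.0 CPM in WT and at 106 and 114 CPM in 1b-/- mice (0.47 ± 0.17, adjusted p = 0.164 by edgeR). The widest values belonged to scarce forms: Cox8b, with the largest positive log2 fold change (1.43 ± 1.25), was at 0.316 and 0.655 CPM in WT and at 0.170 and 2.48 CPM in 1b-/- mice, so that 1 mutant library set it.

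In complex V, 12 of 15 genes were higher (median 0.15). Atp5d, the delta subunit of the F1 stalk (chr10:79601377-79608563 of mm9, plus strand), was at 254 and 170.4 CPM in WT and at 333 and 324 CPM in 1b-/- mice (0.63 ± 0.21, 1.55-fold, adjusted p = 0.147 by edgeR). Atp5g3 was at 144 and 109.5 CPM in WT and at 168 and 188 CPM in 1b-/- mice (0.49 ± 0.17, adjusted p = 0.156 by edgeR). The catalytic pair did not have an unadjusted p under 0.05: Atp5a1 was at 804 and 759 CPM in WT and at 951 in both 1b-/- mice, and Atp5b at 1021.5 and 892 CPM in WT and at 1218 and 1168 CPM in 1b-/- mice. The groups did not overlap for either gene, as was so for 59.7% of all genes. Atp5j, coupling factor 6 of the stator stalk, was lower, at 127 and 137 CPM in WT and at 105 in both 1b-/- mice (-0.33 ± 0.11, adjusted p = 0.147 by edgeR). Atp5l had the largest negative log2 fold change (-0.50 ± 0.42, adjusted p = 0.483 by edgeR), at 1.76 and 1.78 CPM in WT and 1.33 and 1.16 CPM in 1b-/- mice, the low level of this round described above. Cox7a2l, an assembly factor of supercomplexes and no subunit, was at 91.6 and 80.4 CPM in WT and at 121 and 103 CPM in 1b-/- mice (0.38 ± 0.14, adjusted p = 0.167 by edgeR), while Atp5s and Atp5sl did not have an unadjusted p under 0.05.

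**Figure D3:**
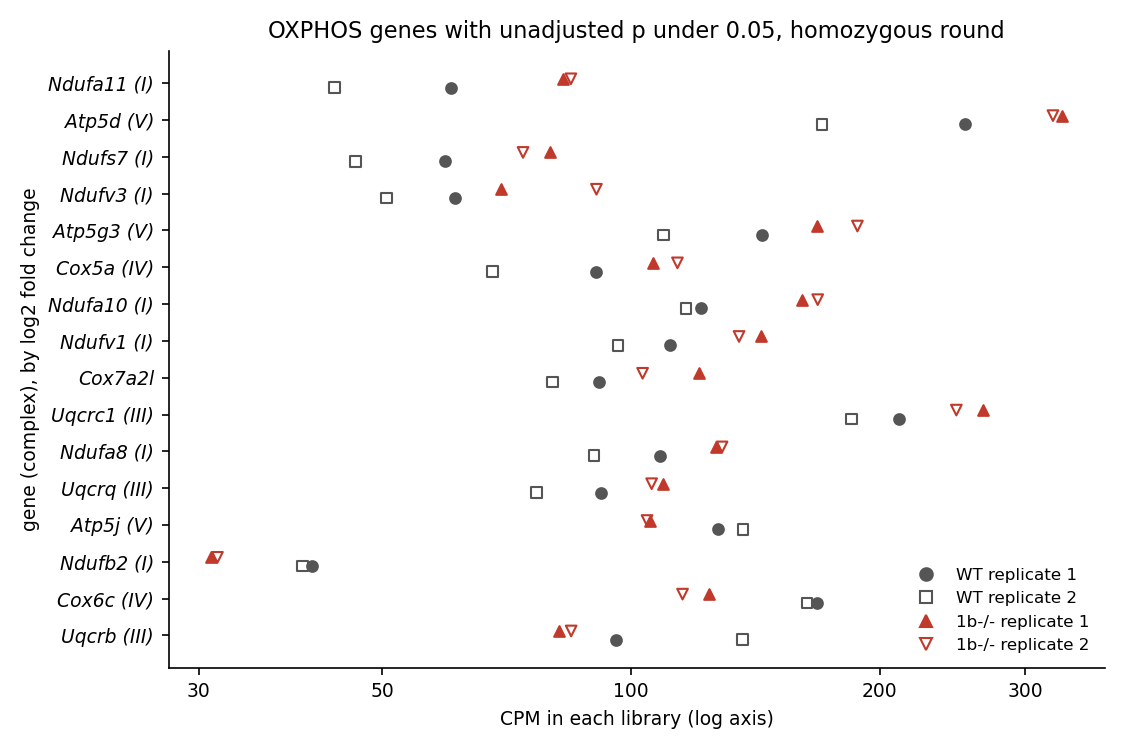
CPM (log axis) of the 16 selected genes with an unadjusted p under 0.05 in the homozygous round, among them Cox7a2l, which is no subunit. Each library has 1 point, and genes are ordered by log2 fold change. The 1b-/- libraries stand above both WT libraries in 12 genes and below both in 4, and WT replicate 2 is the farther WT library from the 1b-/- libraries in all 12 of the higher genes. The genes were picked by p, so that separation of the groups is largely built in. Among all 81 genes, the groups did not overlap in 45, beside 59.7% of all genes.

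The 2 WT libraries did not hold the same level of these genes. Relative to the WT mean, the median subunit gene stood at 0.10 in WT replicate 1 and at -0.10 in WT replicate 2, and at 0.11 and 0.15 in the 1b-/- libraries, on the log2 scale. WT replicate 1 therefore lay close to the mutant libraries, and the median difference (0.13) was smaller than the SD of the WT medians (0.15). Without WT replicate 1, 30 of 81 genes had an unadjusted p under 0.05, beside 26.3% of all genes, and the median was 0.27. Without WT replicate 2, 7 had, beside 22.2% of all genes, and the median was 0.04, with 36 genes lower. Without 1b-/- replicate 1, which leaves females only, 9 had an unadjusted p under 0.05, beside 19.4% of all genes. Without 1b-/- replicate 2, 4 of 80 had, beside 16.6% of all genes.

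The fold changes of the homozygous round moved with the base composition of the genes. Over 13800 genes with annotated exons, the log2 fold change had a Spearman rho of 0.35 with exon GC content, and the median over the genes was -0.31 in the lowest of 10 bins of GC content and 0.29 in the highest. Over the 81 subunit genes rho was 0.40, as a description across genes that share libraries. The 27 subunit genes with the lowest GC content had a median of 0.0036, the middle 27 one of 0.13 and the highest 27 one of 0.26. The 12 higher genes had a median GC content of 54.7% and the 4 lower ones 45.8%, with Atp5g3, at 41.6%, an exception among the higher ones. In the heterozygous round rho was -0.06 over all genes and -0.30 over the subunit genes. The WT libraries of the homozygous round also differed from each other by GC content. Relative to the WT mean, the medians of the lowest and highest bins were -0.11 and 0.12 in WT replicate 1. They were 0.11 and -0.12 in WT replicate 2, -0.29 and 0.30 in 1b-/- replicate 1, and -0.31 and 0.27 in 1b-/- replicate 2.

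With an offset for GC content in the fit, an alternative chosen after seeing the data, rho over the subunit genes was -0.02 and the median log2 fold change 0.10. Then 15 of 81 genes had an unadjusted p under 0.05, beside 24.6% of all genes, and 11 of them were among the 16. Ndufa10 (0.41 ± 0.09) and Cox6c (-0.40 ± 0.10) kept most of their size. Ndufa11 had 0.49 ± 0.13, Atp5d 0.44 ± 0.16 and Uqcrc1 0.19 ± 0.10. Ndufa8, Ndufb2, Ndufv3, Uqcrb and Uqcrc1 no longer had an unadjusted p under 0.05, and Atp5f1, Atp5g1, Ndufa9 and Ndufs6 did.

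**Figure D4:**
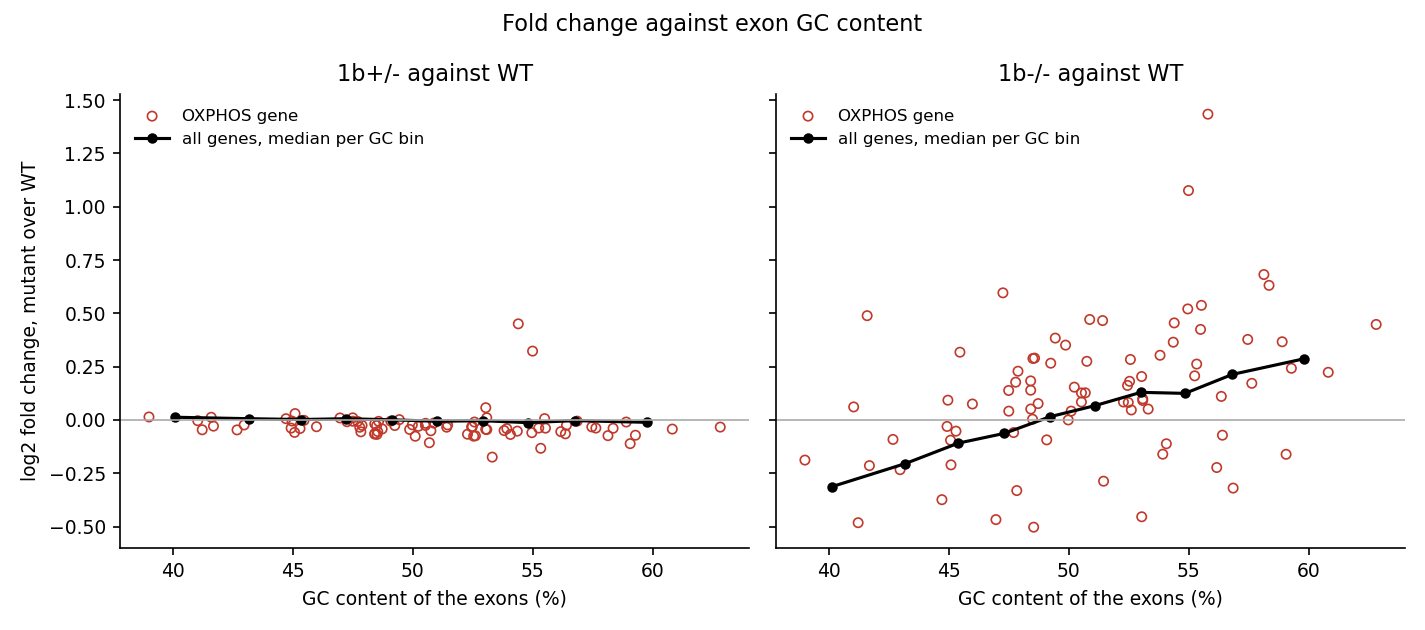
Log2 fold change of each subunit gene (red circles) against the GC content of its exons in percent, for 1b+/- mice (left) and 1b-/- mice (right), with black points for the median of all genes in each of 10 bins of GC content. In the homozygous round the black line climbs from -0.31 to 0.29 and the medians of the subunit genes go from 0.0036 in the 27 of lowest GC content to 0.26 in the 27 of highest, whereas in the heterozygous round the black line stays between -0.01 and 0.01.

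Genes that work beside the subunits were described from lists, with 0 called in both rounds except where given. Cycs, the somatic cytochrome c that carries electrons between complexes III and IV, was lower in 1b-/- mice (-0.36 ± 0.13, adjusted p = 0.159 by edgeR) and stood at -0.03 ± 0.05 in 1b+/- mice. Of 37 assembly factors in the homozygous round, 18 were lower and 19 higher (median 0.0093). Those with the smallest p were Cox17, a copper chaperone of complex IV (-0.64 ± 0.13, adjusted p = 0.0670 by edgeR), and Cox20, which helps to mature its subunit 2 (-0.73 ± 0.16, adjusted p = 0.0702 by edgeR). In the heterozygous round 21 of 36 assembly factors were lower (median -0.01), and Cox20 had the opposite sign, at 0.30 ± 0.09 (adjusted p = 0.274 by edgeR). Atpif1, the inhibitor of ATP synthase, stood at -0.09 ± 0.04 in 1b+/- mice and at 0.13 ± 0.13 in 1b-/- mice. The carriers of adenine nucleotides and phosphate had medians of -0.04 and 0.14 over 3 genes.

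Of 17 genes of the TCA cycle and pyruvate dehydrogenase, 13 were higher in 1b-/- mice (median 0.11). Mdh2, the mitochondrial malate dehydrogenase, led them (0.55 ± 0.15, adjusted p = 0.101 by edgeR), and in 1b+/- mice the median was -0.0014. Of 16 glycolytic genes, 13 were higher in 1b-/- mice, with a median of 0.39, and Pfkl, a phosphofructokinase, rose (1.13 ± 0.18, adjusted p = 0.0412 by edgeR). In 1b+/- mice 11 of 16 were lower (median -0.02). The 11 regulators of mitochondrial biogenesis had a median of -0.11 in 1b-/- mice, with 9 lower, and of -0.02 in 1b+/- mice, with 7 lower. Gabpa, a GABP subunit, was the one with the smallest p in 1b-/- mice (-0.32 ± 0.13, adjusted p = 0.196 by edgeR). In 1b-/- mice cytosolic ribosomal protein genes had a median of 0.06, with 43 of 77 higher and 1 called, and mitochondrial ones a median of 0.04, with 47 of 76 higher.

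The difference between the 2 genotype effects was tested in 1 fit of all 11 libraries, as the 1b-/- effect minus the 1b+/- effect. It passed an adjusted p of 0.05 in 22 of 81 genes, 19 with the more positive effect in 1b-/- mice and 3 with the more negative, beside 27.3% of 14905 genes. The share among the subunit genes, 22 of 81, was thus near that of all genes. Ndufa10 led, with a difference of 0.49 ± 0.07 (adjusted p = 0.00139 by edgeR), followed by Cox6c at -0.48 ± 0.08 (adjusted p = 0.00195) and Ndufa11 at 0.75 ± 0.16 (adjusted p = 0.00733). By complex, the test called 9 of 36 genes of complex I, 1 of complex II (Sdhb), 2 of complex III (Uqcrc1 and Uqcrq), 3 of complex IV, 6 of complex V and Cox7a2l. With the offset for GC content, Sdhb, Uqcrc1, Ndufb2, Ndufb11, Cox6a1, Atp5a1, Atp5g2 and Atp5j no longer passed. Atp5f1, Atp5g1 and Uqcrfs1 did pass with it, as did 23.7% of all genes. Sdhb then stood at 0.10 ± 0.07, and Ndufa10 at 0.45 ± 0.07. By sign alone, of 80 genes in both fits, 50 were lower in 1b+/- and higher in 1b-/- mice, 18 lower in both, 7 higher in both and 5 the reverse. The share over all genes was not counted, and each round's median shift was smaller than the SD of its WT medians, as given above. The round is part of this contrast, and the biological coefficient of variation was 22.9% in the homozygous round and 9.13% in the heterozygous one, and the pooled 14.1% used here lies below the first of these. Without WT replicate 1 of the homozygous round the count was 46 of 81, beside 33.7% of all genes.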

How the data were processed

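RNA-seq libraries of hippocampus from 11 mice were used. STAR 2.7.2 (mm9) and featureCounts were the authors' aligner and counter. The values they deposited are raw counts per gene in 2 tables, 1 per round of sequencing, with no normalization. The libraries were stranded, and the strand setting of the counting is not given in the sources used here, so overlapping and antisense genes are uncertain. How reads that match several places were counted is not given either, and many subunit genes have processed pseudogenes.

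Within each round, genes reaching 1 CPM in any library were fitted in edgeR 4.0.16 (R 4.3.3; TMM factors, estimateDisp, glmQLFit, glmQLFTest), with genotype as the only term, Benjamini-Hochberg adjustment over all genes tested and a threshold of 0.05. A standard error is |log2 fold change| over the root of its F statistic. CPM are TMM-scaled within a round, and RPKM divide them by the exon length in the mm9 GENCODE annotation, which also gave GC content. Depth was 20667122 to 36145161 counts, so that a gene at 1 CPM has about 20 counts. Counting error therefore limits the scarce forms. The code was tested on simulated counts.

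Genes were named by a rule: the leading genes by p in each complex and comparison, the extremes, the core subunits, isoform pairs, F1 and c-ring genes, the 5 leading differences between genotypes, the targeted gene, and the 2 leading genes of each pathway list. One gene chosen this way is left out of the text. The rule was widened to all genes with an unadjusted p under 0.05. Those whose level differed most between rounds were named after their values were seen. The genes, lists and rule were chosen with earlier results of these data known. Alternatives were sex as a covariate, 1 fit of all 11 libraries, leaving out each library, other factors (upper-quartile, RLE), other filters (none, filterByExpr), DESeq2 1.42.0, the likelihood ratio test, and, chosen after seeing the data, an offset for GC content (loess, span 0.5).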

Additional observations from a re-analysis of the deposited data

Results flagged for a closer look

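In the 4 1b+/- libraries, 4 subunit genes had 1 library far from the other 3 by Dixon's criterion, which chance meets in about 1 of 20 groups, and 80 genes were examined. Ndufs3, a core subunit of complex I, was at 63.9 CPM in replicate 2, where the others lay between 70.4 and 71.6 CPM. Uqcrh, the hinge protein of complex III, was at 102 CPM in replicate 4, above 91.5 to 93.2 CPM. Uqcrc1, a core protein of complex III, was at 169 CPM in the same replicate, above 162.5 to 163 CPM. Replicate 4 is the one female of its round. Ndufa4l2, a scarce relative of Ndufa4, was at 1.42 CPM in replicate 1, below 1.69 to 1.74 CPM.

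For 22 of 81 genes, beside 27.3% of all genes, the effect of genotype differed between 1b-/- and 1b+/- mice, by the contrast over all 11 libraries (adjusted p under 0.05 edgeR, quasi-likelihood F test, Benjamini-Hochberg). Each value below is the log2 fold change in 1b-/- mice minus that in 1b+/- mice. In complex I it was 0.49 for Ndufa10, 0.75 for Ndufa11, 0.41 for Ndufv1, 0.41 for Ndufa8, 0.57 for Ndufs7, 0.57 for Ndufv3, -0.39 for Ndufb2, 0.28 for Ndufa9 and 0.25 for Ndufb11. In complexes II and III it was 0.24 for Sdhb, 0.40 for Uqcrc1 and 0.39 for Uqcrq. In complex IV it was -0.48 for Cox6c, 0.48 for Cox5a and 0.47 for Cox6a1. In complex V it was 0.66 for Atp5d, 0.29 for Atp5a1, 0.31 for Atp5b, 0.47 for Atp5g3, 0.39 for Atp5g2 and -0.28 for Atp5j. For Cox7a2l, an assembly factor of supercomplexes, it was 0.38. The 2 rounds differ in read type, depth, sex, spread and tissue makeup as well as genotype, and these cannot be told apart here. Striatal genes summed to 655 to 927 CPM in WT of the heterozygous round. In WT of the homozygous round they summed to 4728 to 11125 CPM. With the offset for GC content, some of the differing subunit genes no longer passed, as listed above.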

How the results depend on the processing

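No subunit gene was called in 1b+/- mice under any alternative run, and the genes with an unadjusted p under 0.05 numbered 1 with upper-quartile factors (11.4% of all genes), 1 with the likelihood ratio test (9.1% of all genes), 0 with all 11 libraries in 1 fit (4.8% of all genes), and 1 to 4 with 1 library left out (6.99% to 16.1% of all genes), against 3, the lowest without 1b+/- replicate 2, WT replicate 1 or WT replicate 3. In 1b-/- mice, 4 of 81 genes were called by DESeq2 (14.4% of all genes), 1 by the likelihood ratio test (12.3% of all genes) and 26 with all 11 libraries in 1 fit, whose pooled spread is lower (37.2% of all genes), against 0. The genes with an unadjusted p under 0.05 numbered 37 in that fit (46.7% of all genes), 9 with sex as a covariate (19.4% of all genes) and 4 to 30 with 1 library left out (16.6% to 26.3% of all genes), against 16. The lowest count was without 1b-/- replicate 2 and the highest without WT replicate 1. The number of genes whose effect differed between genotypes was 11 with sex as a covariate (20.8% of all genes) and 10 to 46 with 1 library left out (19.2% to 33.7% of all genes, against 27.3%), against 22. It was under 15 without any one library other than WT replicate 1 of the homozygous round (46), WT replicate 2 of the heterozygous round (15) and 1b-/- replicate 2 (15). The median log2 fold change ran from -0.05 to -0.0046 in 1b+/- mice and from 0.04 to 0.27 in 1b-/- mice over the alternatives, in each case less than the spread of WT libraries away from the value reported. The fold changes of the genes chosen by p or by size kept their sign under all alternatives run, and 27 of those alternative values, all in 1b-/- mice, passed an adjusted p of 0.05 where the value reported did not. Over all subunit genes and alternatives, 7.98% of 1278 fold changes in 1b+/- mice and 5.04% of 1052 in 1b-/- mice had the opposite sign from the value reported. No paired analysis was possible because the labels give no replicate numbers shared between groups. Where a library left a group with 1 sample, that sample was assumed to vary like the others. In each round 1 mouse differed in sex from all others, 1b-/- replicate 1 and 1b+/- replicate 4. Within a round, sex as a covariate therefore sets that mouse aside, and is no separate check from leaving it out. The cause of these changes was not tested. Scarce forms such as Cox8b and Cox7a1 rest on few counts, and for them depth limits the comparison.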
